A study of Mus musculus with 9 samples.

Results

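The genes described here encode the cell contacts of skin: the desmosome, the tight junction and the gap junction, together with E-cadherin (Cdh1), P-cadherin (Cdh3) and the desmosomal tetraspan protein Perp. They were taken by gene symbol from the deposited tables, and 65 of 49585 annotated genes matched: 9 desmosomal cadherins, 6 desmosomal plaque proteins, the 3 genes Cdh1, Cdh3 and Perp, 23 claudins, 4 other tight junction genes and 20 connexins. Of the 65, 45 had enough reads to be tested, 11 had some reads but too few, and 9 had no read in any library.

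RNA was isolated from skin of 3 kinds of mice bought from the Jackson Laboratory: wild-type C57BL/6, wild-type BALB/c, and mice given as IL-6 -/- on a C57BL/6 strain. All had arrived at 4 to 5 weeks of age. Shaving at the age of 6 weeks set day 0, no treatment followed, and skin was taken on day 8. There are 3 total RNA libraries per group, while the protocol names 3, 3 and 6 mice. No label links a library to a mouse, so p-values reflect only how far these libraries spread, and part of that spread may be technical.

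Total exon reads ran from 6083876 to 6882193 in C57BL/6, from 6115739 to 6242332 in BALB/c and from 3843953 to 4476346 in the third group. Il6, the targeted gene, had 2, 1 and 0 reads in C57BL/6 and 0, 2 and 0 in BALB/c. The third group had 6, 24 and 1, so a loss of reads did not bear out its label. Which part of the gene is deleted was not given, so these few reads cannot settle the genotype. The libraries of the third group are therefore called KO-labelled, after the label IL-6 KO, and each direction reported for them depends on that label. BALB/c replicate 2 had 130 reads of Xist, and every other library had 5 or fewer. The 65 genes together took 0.490% to 0.953% of exon reads in C57BL/6, 0.618% to 0.771% in BALB/c, but 1.21% to 1.396% in the KO-labelled libraries.

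In a desmosome, the desmocollins (Dsc) and desmogleins (Dsg) of adjacent cells bind each other outside the cell, and inside it plakoglobin (Jup), the plakophilins (Pkp) and desmoplakin (Dsp) tie them to keratin filaments. Claudins (Cldn) and occludin (Ocln) seal the space between cells and are held by the scaffold proteins of the Tjp genes, while connexins (Gj) form channels that join the cytoplasm of neighbouring cells. In skin these genes serve the epidermis and the hair follicle, and some claudins and connexins are better known from blood vessels, nerve sheaths, the inner ear or the lens.

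Promoter sequences are shown for 5 connexins: Gja3, Gjb2 and Gjb6, which neighbour each other and were all called higher in the third group, Gja1, the connexin with the highest level per exon length, and Gjb5, an epidermal connexin whose level was not called different. RefSeq (GRCm38.p6) had a promoter entry for 37 of the 65 genes, and the 250 bases before the start of transcription are printed 5′ to 3′ along the gene's strand. The RefSeq start lay 17 bases from the gene start in the tables for Gjb5 and at the same base for the other 4 genes. Capitals mark matches on either strand to 4 motifs. The TATA box was searched as TATAAA, the GC box as GGGCGG, the AP-1 site as TGANTCA and the TCF/LEF core as CTTTGA.
Gja3 (chr14:57058031-57058280, minus strand): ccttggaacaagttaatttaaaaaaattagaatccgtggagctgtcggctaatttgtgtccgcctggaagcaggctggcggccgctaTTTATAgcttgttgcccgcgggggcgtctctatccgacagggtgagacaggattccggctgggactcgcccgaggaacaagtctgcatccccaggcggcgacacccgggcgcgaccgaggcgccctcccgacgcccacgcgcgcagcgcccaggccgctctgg
Gjb2 (chr14:57104703-57104952, minus strand): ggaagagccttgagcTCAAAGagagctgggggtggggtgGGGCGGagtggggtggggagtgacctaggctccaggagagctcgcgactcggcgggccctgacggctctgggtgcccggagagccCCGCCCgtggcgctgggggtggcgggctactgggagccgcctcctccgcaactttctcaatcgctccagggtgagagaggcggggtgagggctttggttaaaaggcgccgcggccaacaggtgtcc
Gjb6 (chr14:57133612-57133861, minus strand): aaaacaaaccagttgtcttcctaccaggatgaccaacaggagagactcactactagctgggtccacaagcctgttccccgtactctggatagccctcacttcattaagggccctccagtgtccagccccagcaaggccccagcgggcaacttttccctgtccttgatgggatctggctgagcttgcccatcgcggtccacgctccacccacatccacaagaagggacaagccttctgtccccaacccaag
Gja1 (chr10:56377050-56377299, plus strand): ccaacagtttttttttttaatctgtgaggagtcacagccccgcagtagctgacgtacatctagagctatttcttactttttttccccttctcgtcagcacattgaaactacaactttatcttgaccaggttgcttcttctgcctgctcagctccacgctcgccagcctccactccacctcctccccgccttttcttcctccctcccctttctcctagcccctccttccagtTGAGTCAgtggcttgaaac
Gjb5 (chr4:127358165-127358414, minus strand): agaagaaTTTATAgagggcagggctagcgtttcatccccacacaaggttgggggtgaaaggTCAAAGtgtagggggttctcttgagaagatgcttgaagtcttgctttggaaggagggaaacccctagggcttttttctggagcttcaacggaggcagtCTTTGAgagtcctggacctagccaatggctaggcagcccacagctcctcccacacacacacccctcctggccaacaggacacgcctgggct
No matches overlapped. The Gja3 window held 1 TATA box match, Gjb2 held 2 GC box matches and 1 TCF/LEF core, Gjb6 held none of the 4, Gja1 held 1 AP-1 match, and Gjb5 held 1 TATA box match and 2 TCF/LEF cores. Among all 32851 RefSeq windows of this length, 12.4% held the TATA box letters, 32.7% the GC box, 6.75% the AP-1 site and 13.8% the TCF/LEF core. The 3 neighbours on chromosome 14 thus had no motif in common among those searched.

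Junction genes differed mainly between the KO-labelled libraries and the wild-type groups, and among the genes called higher than in C57BL/6 were Gjb2, Dsc2, Gja1, Cdh3, Cldn1 and Cldn4. Levels (CPM) are reads scaled to library size and composition, fold changes are log2 values ± SE, and a gene is called when edgeR's quasi-likelihood test gives an adjusted p under 0.05 over all 14415 genes tested. Against C57BL/6, 25 of the 45 tested genes were called (55.6%, beside 35.2% of all genes tested), 20 of them higher (beside 19.2% of all genes) and 5 lower (beside 16% of all genes). Their median log2 difference was 0.60, and that of all genes was 0.01.

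Against BALB/c, 29 of the 45 were called (64.4%, beside 37.3% of all genes), 22 higher (beside 19.9%) and 7 lower (beside 17.4%), with a median of 0.69 beside 0.01 for all genes. That count was 19 without IL-6 KO replicate 3, where 22.5% of all genes were called. Between the wild-type strains, 1 of 45 was called (2.22%, beside 3.41% of all genes). A joint test of the 3 groups called 27 of 45 (60%, beside 40.7%). The comparisons share groups, so their counts are not independent, and in bulk skin fewer cells of a type and less RNA per cell cannot be told apart.

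Membership of the tested set needs care where only 1 group carried the reads. Cldn8, Cldn14, Dsg1c, Dsg4, Gja3 and Gjb6 passed the filter on low counts only through the KO-labelled libraries, where they are high, so their fold changes carry that selection. Another tested gene passed only through the BALB/c libraries, and its differences carry the same kind of selection. Among the 38 tested genes that did not depend on a single group to pass, 14 were higher and 5 lower against C57BL/6 (36.8% and 13.2%, beside 17.5% and 16.4% of the 13677 genes under the same restriction). Against BALB/c, 16 were higher and 6 lower (42.1% and 15.8%, beside 18.2% and 17.5%). Between the strains none of the 38 was called, beside 1.28% higher and 1.73% lower of the same 13677 genes. Libraries of the compared groups did not overlap for 29 of 45 genes against C57BL/6 (64.4%, beside 47.5% of all genes), for 35 against BALB/c (77.8%, beside 50.7%) and for 8 between the strains (17.8%, beside 30.2%).

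**Figure D1:**
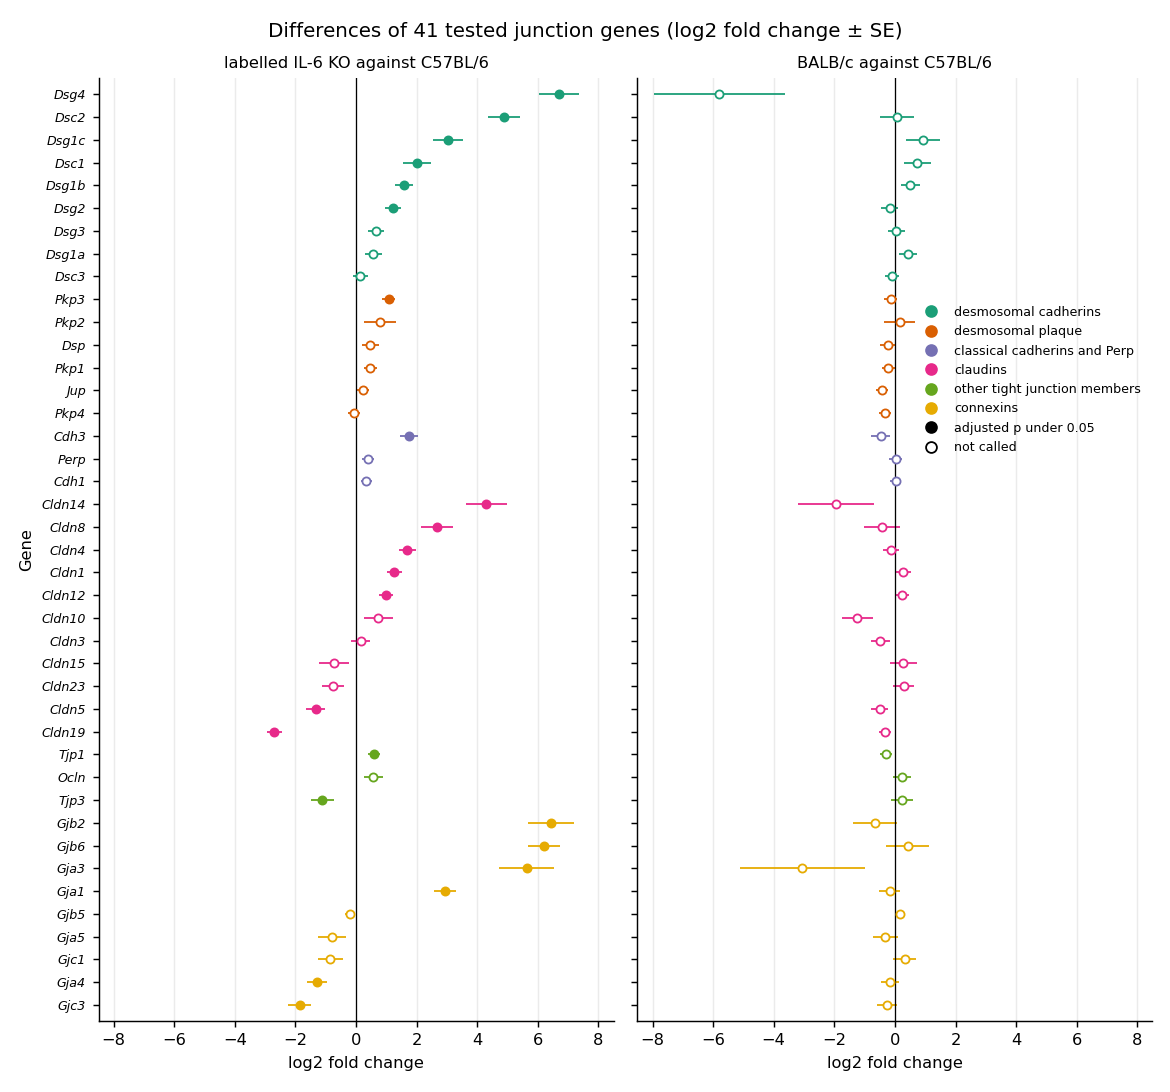
Log2 fold change ± SE of 41 of the tested genes, labelled IL-6 KO against C57BL/6 on the left and BALB/c against C57BL/6 on the right, coloured by class, with filled points for an adjusted p under 0.05. On the left 18 filled points lie above 0 and 5 below, and on the right none is filled, with wide bars for Dsg4, Gja3 and Cldn14, which had few or no reads in these strains.

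Of the genes called higher, 19 were higher against both wild-type groups, and 4 genes were lower against both (Cldn19, Gja4, Gjc3 and Tjp3). The 19 include Cldn8, Cldn14, Dsg1c, Dsg4, Gja3 and Gjb6, which passed the filter only through the KO-labelled libraries. Both comparisons share those libraries, and the share of all genes called in both was not counted. In each group 1 library was often the extreme one. Over the 45 tested genes, C57BL/6 replicate 3 was the lowest of its group for 28 and replicate 2 the highest for 29, BALB/c replicate 1 was the lowest for 26, and in the KO-labelled group replicate 1 was the highest for 27 and replicate 2 the lowest for 25. Replicate 2 was the lowest KO-labelled library for 17 of the 20 genes higher than in C57BL/6. With C57BL/6 replicate 3 and IL-6 KO replicate 2 left out, a pair chosen after seeing the data, 26 genes were called against C57BL/6 and 33 against BALB/c, while the share of all genes called went from 35.2% to 40.5% and from 37.3% to 49.1%.

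Markers of hair follicle cells moved with the junction genes. The summed level of 12 hair shaft and matrix markers was 31.0 to 124.5 CPM in C57BL/6, 26.8 to 39.9 in BALB/c, with 15480, 3038 and 11830 in the KO-labelled libraries, where 12 of 12 were higher than in C57BL/6. For 10 inner root sheath markers the sums were 127 to 796, 123 to 137, and 61100, 15830 and 41920 CPM (9 of 10 higher), and for 8 outer root sheath and stem cell markers 1166 to 1408, 867 to 1004, and 4105, 3174 and 3522 CPM (5 of 8 higher). The hair keratins Krt33b and Krt81 had 0 reads in BALB/c.

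Melanocyte markers summed to 36.6 to 51.3, 30.6 to 39.2, and 821, 103 and 923 CPM, with all 6 tested markers higher than in C57BL/6. IL-6 KO replicate 2 was thus the lowest of its group in each of these follicle lists and in the melanocyte list, as it was for most junction genes that rose. Interfollicular keratinocyte markers, which define the labelled tissue, summed to 15450 to 24770 CPM in C57BL/6 and 21660 to 25600 in BALB/c. The KO-labelled libraries had 8207, 25750 and 10640 CPM, so replicates 1 and 3 lay below every wild-type library. Of these 10 markers, 1 was higher and 1 lower than in C57BL/6, and 1 was higher and 3 lower than in BALB/c.

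Markers of nerve sheaths and skeletal muscle were lower in the KO-labelled libraries than in both wild-type groups. Blood vessel markers were lower than in C57BL/6, while their sums overlapped those of BALB/c. Blood endothelial sums were 370 to 582 CPM in C57BL/6, 174 to 367 in BALB/c and 176 to 220 in the KO-labelled libraries. Of these 10 markers, 9 were lower than in C57BL/6 and 3 lower than in BALB/c. Schwann cell markers stood at 766 to 1146, 660 to 772 and 205 to 328 CPM (6 of 9 lower than in C57BL/6, 7 than in BALB/c). Skeletal muscle markers stood at 49930 to 86050, 23600 to 51420 and 8800 to 9988 CPM (10 of 10 lower than in C57BL/6, 9 than in BALB/c). Against C57BL/6, where 19.2% of all genes tested were higher and 16% lower, smooth muscle and pericyte markers had 3 of 6 lower. Leukocyte markers had 1 of 7 lower and sebaceous markers 2 of 8 higher. Lymphatic endothelial, fibroblast and white adipocyte markers had none called against C57BL/6. The part of these cell types in the junction gene results was not tested.

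**Figure D2:**
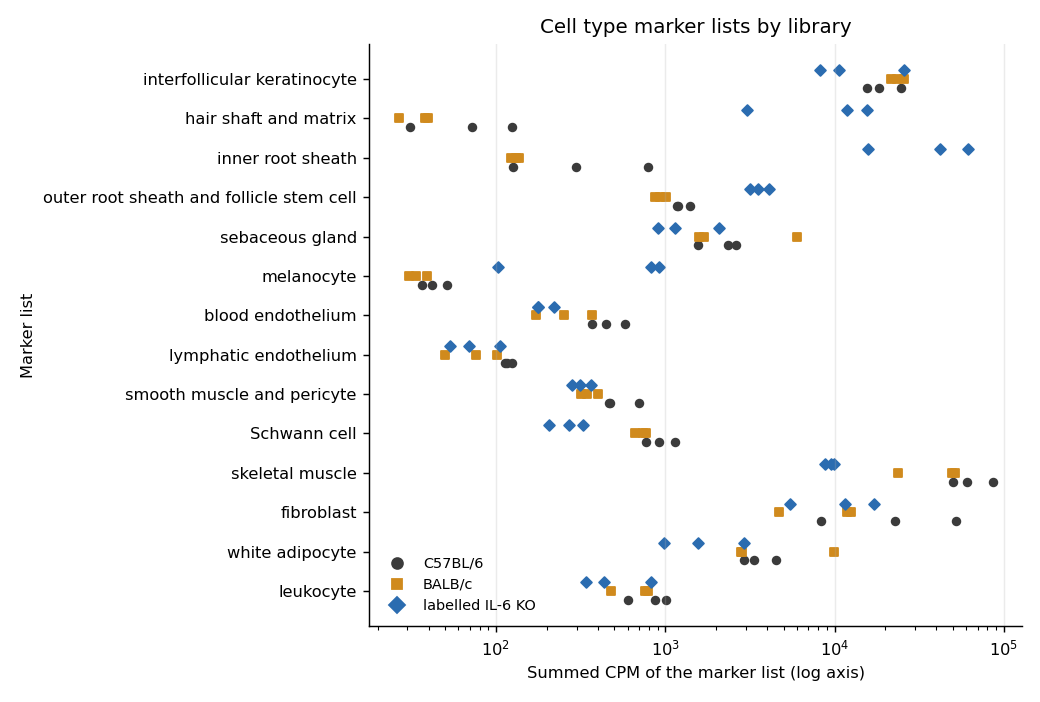
Summed CPM of each marker list on a log axis, 1 point per library, by group. The hair shaft, inner root sheath and melanocyte points of the KO-labelled libraries lie to the right of all wild-type libraries, and their Schwann cell and skeletal muscle points lie to the left.

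Among the desmosomal cadherins, 6 of 9 were higher in the KO-labelled libraries than in C57BL/6 and none was lower. Of all genes tested, 19.2% were higher and 16% lower. The median log2 difference of the class was 1.58. Both the count and the median include Dsg1c and Dsg4, which passed the filter on low counts only through the KO-labelled libraries. Dsg4, the desmoglein of the hair shaft whose loss gives the lanceolate hair mutant (ENSMUSG00000001804, chromosome 18, 20436175 to 20471821, GRCm38), stood at 1.23, 2.09 and 0.186 CPM in C57BL/6, had 0 reads in each BALB/c library, and reached 188, 55.2 and 145 CPM in the KO-labelled libraries. The groups did not overlap. Its log2 difference from C57BL/6 was 6.70 ± 0.67 (edgeR adjusted p = 6.28e-04), and 7.38 without C57BL/6 replicate 2. Its level was at least 764-fold higher than in BALB/c, taking 3 reads over the BALB/c group as the floor. Between the strains Dsg4 had 23 reads in C57BL/6 and none in BALB/c, a level at least 7.61-fold lower by the same floor that edgeR did not call (adjusted p = 0.204).

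Dsc2, the desmocollin found in most epithelia (chromosome 18, 20030633 to 20059554), was at 5.07, 5.67 and 2.04 CPM in C57BL/6, 3.98, 4.66 and 5.03 in BALB/c, with 194, 49.7 and 142 in the KO-labelled libraries. Even the lowest labelled library was well above all 6 wild-type libraries, and the log2 difference from C57BL/6 was 4.88 ± 0.52 (edgeR adjusted p = 4.70e-04). Dsc1, the desmocollin of the upper epidermis, was at 72.6, 97.1 and 23.8 CPM in C57BL/6, 64.2, 127 and 133 in BALB/c, with 307, 192 and 284 in the KO-labelled libraries. It was higher than in C57BL/6 by 2.01 ± 0.47 (adjusted p = 0.00952) and by 1.27 ± 0.46 than in BALB/c, which edgeR did not call (adjusted p = 0.0523), although these groups did not overlap either. Dsc1 was called against BALB/c in 7 alternatives, among them DESeq2 and no filter on low counts. Dsc3, the desmocollin of the basal layers, was not called: it stood at 477, 647 and 343 CPM, 393, 452 and 523, and 502, 644 and 478 in the same order of groups, with all 3 groups overlapping.

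Dsg1a, Dsg1b and Dsg1c are mouse copies of the desmoglein of the upper epidermis. Dsg1a carried most of the reads, at 566, 700 and 314 CPM in C57BL/6, 605, 751 and 779 in BALB/c, with 694, 968 and 679 in the KO-labelled libraries, and was not called. Dsg1b stood at 18.8, 23.1 and 8.73 CPM, 18.8, 26.6 and 26.8, and 42.3, 60.5 and 49.7, and was higher than in C57BL/6 by 1.58 ± 0.31 (edgeR adjusted p = 0.00460). Dsg1c stood at 0.307, 0.895 and 0.928 CPM, 1.43, 0.998 and 1.62, and 4.23, 9.16 and 4.25, and was higher by 3.04 ± 0.50 (adjusted p = 0.00191). The Dsg1b call against BALB/c (1.08 ± 0.31, adjusted p = 0.0217) ended without any 1 BALB/c library or IL-6 KO replicate 3 (adjusted p from 0.00548 to 0.0779 over 19 alternatives).

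Dsg1b and Dsg1a transcripts are 98.3% identical over 1795 bases. Of their reads, 89.6% for Dsg1b and 92.9% for Dsg1a were unique to the gene, so the split is uncertain for the remaining reads. Summed over the 3 copies, Dsg1 stood at 585, 724 and 323 CPM in C57BL/6, 625, 779 and 807 in BALB/c, with 741, 1038 and 733 in the KO-labelled libraries, with a log2 difference of 0.62 ± 0.29 from C57BL/6 that edgeR did not call (adjusted p = 0.121). IL-6 KO replicate 2 was the highest of its group for all 3 copies, the reverse of its place for Dsc1, Dsc2 and Dsg4.

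Dsg2, a desmoglein of basal and simple epithelia, was at 21.8, 21.5 and 14.1 CPM in C57BL/6, 14.5, 14.97 and 21.4 in BALB/c, with 60.6, 32.4 and 41.6 in the KO-labelled libraries, higher than in C57BL/6 by 1.22 ± 0.27 (edgeR adjusted p = 0.00776). Only 22.5% of its reads were unique to the gene, and with the tables' expression value column, which for Dsg2 holds unique reads in the wild-type libraries and total reads in the KO-labelled ones, the log2 difference was 3.48. Dsg3, the desmoglein of the deep epidermis, was at 39.5, 55.5 and 22.5 CPM, 38.7, 39.4 and 44.0, and 68.2, 62.1 and 55.6. The labelled libraries lay just above all wild-type ones, but Dsg3 was not called (0.66 ± 0.27, adjusted p = 0.0806).

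**Figure D3:**
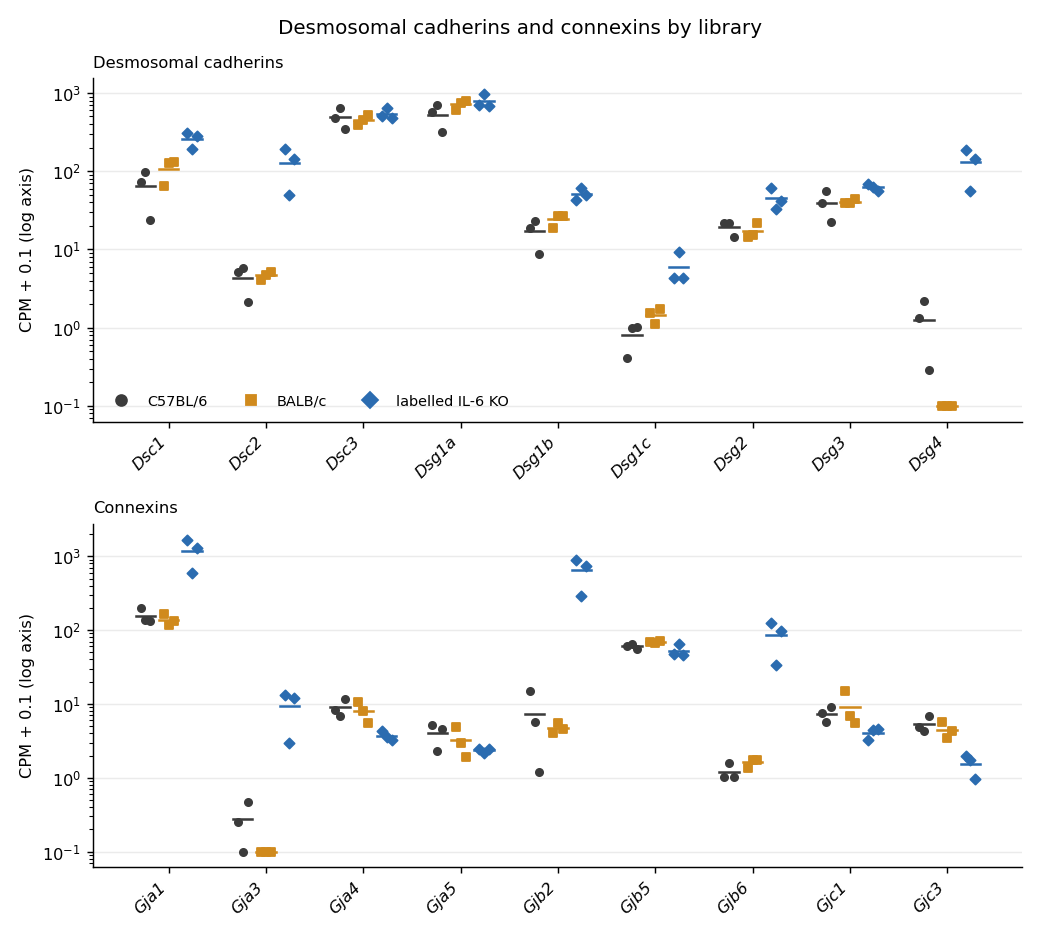
CPM + 0.1 on a log axis for the 9 desmosomal cadherins and 9 of the tested connexins, 1 point per library with a bar at the group mean. The points of the KO-labelled libraries lie far above the wild-type points for Dsc2, Dsg4, Gja1, Gja3, Gjb2 and Gjb6.

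Of the 6 desmosomal plaque genes, 1 was called against C57BL/6 (beside 35.2% of all genes), with a median log2 difference of 0.47. Pkp3, a plakophilin found throughout the epidermis, was at 235, 301 and 251 CPM in C57BL/6, 243, 214 and 256 in BALB/c, with 714, 397 and 553 in the KO-labelled libraries, with no overlap. Its log2 difference was 1.08 ± 0.22 from C57BL/6 (edgeR adjusted p = 0.00502) and 1.22 ± 0.22 from BALB/c (adjusted p = 0.00282).

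Jup and Pkp1 were called against BALB/c alone. Jup, shared between desmosomes and adherens junctions, was at 568, 785 and 474 CPM in C57BL/6, 403, 458 and 496 in BALB/c, with 737, 719 and 692 in the KO-labelled libraries, higher than in BALB/c by 0.66 ± 0.20 (edgeR adjusted p = 0.0279). Pkp1, a plakophilin of the upper epidermis, was at 636, 928 and 550 CPM, 527, 618 and 661, and 961, 1046 and 904, higher by 0.69 ± 0.21 (adjusted p = 0.0316). The labelled and BALB/c libraries did not overlap for either gene, while C57BL/6 replicate 2 reached the level of the labelled ones.

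These 2 calls were not stable. The Jup call ended in 6 of 20 alternatives, among them leaving out any 1 BALB/c library, IL-6 KO replicate 1 or IL-6 KO replicate 3 (edgeR adjusted p from 0.00508 to 0.0947). The Pkp1 call ended in 9 of 20, among them leaving out any 1 BALB/c or labelled library or C57BL/6 replicate 1 (adjusted p from 0.00624 to 0.106).

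Dsp, the keratin-binding protein of the desmosome and the plaque gene with the highest level per exon length, was at 1884, 2503 and 1299 CPM in C57BL/6, 1250.0, 1680.0 and 1901 in BALB/c, with 2914, 2449 and 2538 in the KO-labelled libraries, and was not called (0.47 ± 0.27 against C57BL/6, edgeR adjusted p = 0.198). Against BALB/c the Dsp difference was 0.71 ± 0.27 (edgeR adjusted p = 0.0656), without overlap. It was called there in 5 alternatives, among them DESeq2. Pkp4 ranged from 40.7 to 69.5 CPM and Pkp2 from 1.95 to 9.98 over all 9 libraries, each with overlapping groups and no call.

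Of the classical cadherins and Perp, Cdh3 was called. P-cadherin, whose loss in people thins the hair, was at 24.4, 29.4 and 20.2 CPM in C57BL/6, 20.4, 17.1 and 15.9 in BALB/c, with 110.0, 44.4 and 94.9 in the KO-labelled libraries. Every labelled library exceeded every wild-type one, by a log2 difference of 1.74 ± 0.30 against C57BL/6 (edgeR adjusted p = 0.00255) and of 2.22 ± 0.31 against BALB/c (adjusted p = 9.47e-04).

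Its neighbour Cdh1, 46.1 kb away on chromosome 8 and expressed throughout the epidermis, was at 260, 343 and 222 CPM, 261, 272 and 309, and 395, 323 and 325, and was not called (0.34 ± 0.18 against C57BL/6, edgeR adjusted p = 0.180). Perp, the gene of this class with the highest level per exon length, was at 1342, 1813 and 1193 CPM, 1365, 1454 and 1607, and 2016, 1988 and 1721, and was not called either (0.40 ± 0.21, adjusted p = 0.161). The labelled libraries of Cdh1 overlapped those of C57BL/6, where replicate 2 was the highest.

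Among 11 tested claudins, 5 were higher and 2 lower in the KO-labelled libraries than in C57BL/6, beside 19.2% and 16% of all genes. The 5 include Cldn8 and Cldn14, which passed the filter on low counts only through the KO-labelled libraries. Cldn1, without which the epidermis loses water, had the highest mean level per exon length of the family, at 150, 164 and 92.5 CPM in C57BL/6, 146, 168 and 177 in BALB/c, with 409, 238 and 334 in the KO-labelled libraries, without overlap. It was higher than in C57BL/6 by 1.27 ± 0.25 (edgeR adjusted p = 0.00476). Cldn4, a claudin of the granular layer and of many simple epithelia, was at 51.3, 62.0 and 40.1 CPM, 39.96, 51.9 and 49.6, and 229, 106 and 165, higher by 1.70 ± 0.27 (adjusted p = 0.00178). Both had IL-6 KO replicate 2 as the lowest of its group.

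Cldn12 was at 24.6, 27.1 and 25.1 CPM in C57BL/6, 29.5, 32.3 and 28.4 in BALB/c, with 64.5, 31.2 and 56.7 in the KO-labelled libraries, so replicate 2 of the last group lay within the BALB/c range. It was higher than in C57BL/6 by 0.98 ± 0.23 (edgeR adjusted p = 0.0106). Its call against BALB/c (0.75 ± 0.23, adjusted p = 0.0300) ended in 7 of 20 alternatives: without any 1 BALB/c library, without IL-6 KO replicate 1 or 3, with a replicate block and with the expression value column (adjusted p from 2.72e-04 to 0.112). The Cldn1 call against BALB/c (1.00 ± 0.25, adjusted p = 0.0130) ended without IL-6 KO replicate 1, at an adjusted p that rounds to the threshold.

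Cldn8 and Cldn14, better known from the kidney and the inner ear, were rare in wild-type skin. Cldn8 stood at 1.54, 3.28 and 1.49 CPM in C57BL/6, 1.27, 1.33 and 2.11 in BALB/c, with 17.98, 5.09 and 18.04 in the KO-labelled libraries, higher than in C57BL/6 by 2.67 ± 0.52 (edgeR adjusted p = 0.00448). Cldn14 had 5 reads over C57BL/6, 1 over BALB/c, and 28, 11 and 36 in the KO-labelled libraries. Its log2 difference was 4.30 ± 0.67 from C57BL/6 (adjusted p = 0.00160), and its ratio to BALB/c was 103, with a 95% counting interval from 18 to 4134 that covers counting error only. The fitted Cldn14 value against BALB/c moved from 6.23 to 7.97 without BALB/c replicate 1.

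Cldn10, a claudin that forms ion channels between cells, stood at 14.8, 4.47 and 12.4 CPM in C57BL/6, 3.50, 3.83 and 6.00 in BALB/c, with 19.3, 8.35 and 25.3 in the KO-labelled libraries. It was higher than in BALB/c by 1.98 ± 0.51 (edgeR adjusted p = 0.0151) and overlapped C57BL/6. The call ended without BALB/c replicate 1, BALB/c replicate 2 or IL-6 KO replicate 3 (adjusted p from 9.49e-04 to 0.0641 over 20 alternatives).

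Cldn19, Cldn5 and Cldn23 were lower. Cldn19, a claudin of Schwann cells and the kidney, was at 11.8, 11.5 and 11.5 CPM in C57BL/6, 10.4, 8.98 and 8.43 in BALB/c, with 1.32, 2.24 and 1.70 in the KO-labelled libraries, a separation shared by all 3 libraries. Its log2 difference was −2.69 ± 0.25 from C57BL/6 (edgeR adjusted p = 4.29e-04) and −2.37 ± 0.25 from BALB/c (adjusted p = 3.52e-04). The Schwann cell list, at 766 to 1146 CPM in C57BL/6 and 205 to 328 in the KO-labelled libraries, moved the same way, and its part in the result was not tested.

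Cldn5, the main claudin of blood vessel endothelium, was at 15.99, 21.9 and 25.6 CPM in C57BL/6, 20.4, 15.5 and 9.08 in BALB/c, with 8.73, 8.76 and 7.64 in the KO-labelled libraries, lower than in C57BL/6 by −1.33 ± 0.30 (edgeR adjusted p = 0.00846). Against BALB/c Cldn5 was not called (−0.84 ± 0.30, edgeR adjusted p = 0.0548), but it was in 6 alternatives, among them DESeq2 and unique exon reads. Against C57BL/6 it fell beside 9 of 10 blood endothelial markers, whose part was not tested. Cldn23, of the outer epidermis, was at 21.5, 30.3 and 14.3 CPM, 25.5, 26.8 and 28.7, and 8.46, 20.8 and 9.77, lower than in BALB/c by −1.04 ± 0.35 (adjusted p = 0.0436). That call ended in 8 of 20 alternatives, among them leaving out any 1 BALB/c library, C57BL/6 replicate 1, or IL-6 KO replicate 1 or 3 (adjusted p from 7.22e-04 to 0.15). Cldn3 ranged from 4.14 to 12.2 CPM and Cldn15 from 1.32 to 7.32 over the 9 libraries, and neither was called.

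The scaffold genes of the tight junction moved in opposite directions. Tjp3 was at 36.9, 47.0 and 35.5 CPM in C57BL/6, 47.0, 41.1 and 51.6 in BALB/c, with 8.73, 32.2 and 13.6 in the KO-labelled libraries, lower than in C57BL/6 by −1.11 ± 0.38 (edgeR adjusted p = 0.0442). All labelled libraries lay below the wild-type range, but IL-6 KO replicate 2 was the nearest to it, and without it the Tjp3 difference was −1.82.

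Tjp1, the scaffold gene found in most epithelia and endothelia, was at 79.5, 85.3 and 67.8 CPM in C57BL/6, 76.6, 61.0 and 53.4 in BALB/c, with 144, 87.8 and 123 in the KO-labelled libraries. It was higher than in BALB/c by 0.89 ± 0.20 (edgeR adjusted p = 0.00881) and than in C57BL/6 by 0.60 ± 0.20 (adjusted p = 0.0430). The call against C57BL/6 ended in 11 of 20 alternatives, among them a replicate block and leaving out any 1 C57BL/6 library, BALB/c replicate 2 or 3, or replicate 1 or 3 labelled IL-6 KO (adjusted p from 0.00664 to 0.156).

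The Tjp3 call against C57BL/6 ended in 10 of 20 alternatives, among them leaving out any 1 wild-type library or IL-6 KO replicate 1 or 3 (edgeR adjusted p from 3.75e-04 to 0.148). Against BALB/c (−1.34 ± 0.38, adjusted p = 0.0208) it ended in 3 of 20, among them leaving out BALB/c replicate 3 or IL-6 KO replicate 3 (adjusted p from 1.89e-04 to 0.0830), and without IL-6 KO replicate 2 the difference was −2.04. Ocln was at 17.8, 26.0 and 9.47 CPM, 17.99, 23.8 and 21.3, and 31.2, 23.0 and 25.3 in the 3 groups, which overlapped, and was not called (0.56 ± 0.31 against C57BL/6, adjusted p = 0.181).

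Connexin reads were several times more abundant in the KO-labelled libraries. Their summed level was 335 to 424 CPM in C57BL/6, 353 to 405 in BALB/c, with 2991, 1204 and 2353 in the KO-labelled libraries. Of 12 tested, 5 were higher and 2 lower than in C57BL/6, beside 19.2% and 16% of all genes tested. The median log2 difference of the class was 0.03. Among the 5, Gja3 and Gjb6 passed the filter on low counts only through the KO-labelled libraries.

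Gjb2, whose loss causes deafness in people and some of whose mutations thicken the skin (ENSMUSG00000046352, chromosome 14, 57098600 to 57104702), was at 15.1, 5.67 and 1.11 CPM in C57BL/6, 3.98, 5.49 and 4.54 in BALB/c, with 904, 286 and 736 in the KO-labelled libraries. The groups were far apart, although C57BL/6 itself was spread widely, with replicate 1 high and replicate 3 low. The log2 difference from C57BL/6 was 6.44 ± 0.76 (edgeR adjusted p = 5.68e-04), and 7.49 without C57BL/6 replicate 1. Against BALB/c it was 7.10 ± 0.80 (adjusted p = 4.40e-04).

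Gjb6, mutated in a human disorder of hair, nails and palm skin (ENSMUSG00000040055, chromosome 14, 57123303 to 57133611), was at 0.922, 1.49 and 0.928 CPM in C57BL/6, 1.27, 1.66 and 1.62 in BALB/c, with 125, 34.0 and 97.9 in the KO-labelled libraries. Its log2 difference from C57BL/6 was 6.22 ± 0.53 (edgeR adjusted p = 4.29e-04). Gja3, best known as a connexin of the lens (chromosome 14, 57035608 to 57058030), had 1, 0 and 2 reads in C57BL/6, none in BALB/c, with 49, 14 and 56 in the KO-labelled libraries. On 119 against 3 reads, its ratio to C57BL/6 was 55, with a 95% counting interval from 18.4 to 270.6 (edgeR adjusted p = 0.00326), and it was at least 54.6-fold higher than in BALB/c by the floor of 3 reads. The fitted Gja3 value against C57BL/6 was 5.63 ± 0.90, and 6.53 without C57BL/6 replicate 3.

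Gja1, the most widely expressed connexin (chromosome 10, 56377300 to 56390419), was at 198, 139 and 132 CPM in C57BL/6, 164, 119 and 133 in BALB/c, with 1676, 597 and 1280.0 in the KO-labelled libraries. No labelled library came near the wild-type range, and the log2 difference from C57BL/6 was 2.92 ± 0.36 (edgeR adjusted p = 6.61e-04). Over the same libraries the hair shaft and matrix list was at 31.0 to 124.5 CPM in C57BL/6 and 15480, 3038 and 11830 in the KO-labelled libraries, and its part in the connexin results was not tested.

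Gjb5, a connexin of the epidermis, was not called. It was at 60.3, 65.8 and 55.9 CPM in C57BL/6, 68.5, 67.7 and 70.2 in BALB/c, with 47.9, 63.9 and 46.1 in the KO-labelled libraries, which overlapped C57BL/6 but lay below BALB/c. The log2 difference from C57BL/6 was −0.20 ± 0.14 (edgeR adjusted p = 0.294).

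Gja4 and Gjc3 were lower. Gja4, a connexin of arterial endothelium, was at 8.30, 6.86 and 11.5 CPM in C57BL/6, 10.5, 7.98 and 5.35 in BALB/c, with 4.23, 3.46 and 3.18 in the KO-labelled libraries, lower than in C57BL/6 by −1.29 ± 0.33 (edgeR adjusted p = 0.0139). Gjc3, a connexin of myelin-forming cells, was at 4.77, 4.18 and 6.87 CPM, 5.57, 3.33 and 4.22, and 1.85, 1.63 and 0.849, lower by −1.86 ± 0.39 (adjusted p = 0.00578). Neither gene overlapped between the labelled and wild-type libraries, and Gja5, another arterial connexin, ranged from 1.78 to 5.07 CPM over the 9 libraries without a call. Only 3.13% of the Gja5 reads were unique to the gene, so its level is uncertain. With the expression value column, where the same mismatch of unique and total reads holds for Gja5, it was called higher than in C57BL/6 (3.15 ± 0.54, adjusted p = 0.00151) and than in BALB/c (4.77 ± 0.67, adjusted p = 5.13e-04), the opposite sign to total exon reads.

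The Gja4 call against C57BL/6 ended in 2 of 20 alternatives (edgeR adjusted p from 0.00394 to 0.0581). These left out IL-6 KO replicate 3, or C57BL/6 replicate 3 and IL-6 KO replicate 2 together. Against BALB/c (−1.14 ± 0.33, adjusted p = 0.0231) the Gja4 call ended without BALB/c replicate 1, BALB/c replicate 2 or IL-6 KO replicate 3 (adjusted p from 0.0111 to 0.0856). The Gjc3 call against BALB/c (−1.60 ± 0.39, adjusted p = 0.0116) ended without IL-6 KO replicate 3 (adjusted p = 0.0521). Gjc1, a connexin of smooth muscle, was at 7.38, 5.52 and 8.91 CPM, 14.96, 6.82 and 5.35, and 3.17, 4.28 and 4.46, lower than in BALB/c by −1.18 ± 0.41 (adjusted p = 0.0476). That call ended in 12 of 20 alternatives, among them leaving out any 1 library other than BALB/c replicate 3 (adjusted p from 0.0267 to 0.160).

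The make-up of the families was compared per exon length. Shares here are of CPM per kb summed over a family, mean ± SD over 3 libraries, and carry no test. Among desmocollins, Dsc2 made up 0.713% ± 0.166 in C57BL/6, 0.756% ± 0.0589 in BALB/c, with 12.1% ± 6.25 in the KO-labelled libraries, and Dsc3 went from 84.8% ± 5.09 in C57BL/6 to 52.7% ± 12.2. Among desmogleins, Dsg4 made up 0.266% ± 0.168 in C57BL/6 and 18.1% ± 9.70 in the KO-labelled libraries, where Dsg1a made up 65.3% ± 9.91.

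Among connexins, Gjb2 made up 1.65% ± 1.56 in C57BL/6, 1.10% ± 0.232 in BALB/c, with 30.3% ± 5.37 in the KO-labelled libraries, and Gja1 28.8% ± 4.96, 25.02% ± 3.50 and 44.0% ± 4.38. The share of Gjb5 was 20.3% ± 1.34 in C57BL/6 and 4.31% ± 2.81 in the KO-labelled libraries. Among the Tjp scaffolds, Tjp3 made up 36.3% ± 1.88 in C57BL/6 and 10.6% ± 9.001 in the KO-labelled libraries. Among claudins, Cldn1 had the highest mean share in both, at 34.6% ± 4.98 and 41.7% ± 1.34, with Cldn4 at 23.5% ± 1.20 and 37.2% ± 3.21.

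**Figure D4:**
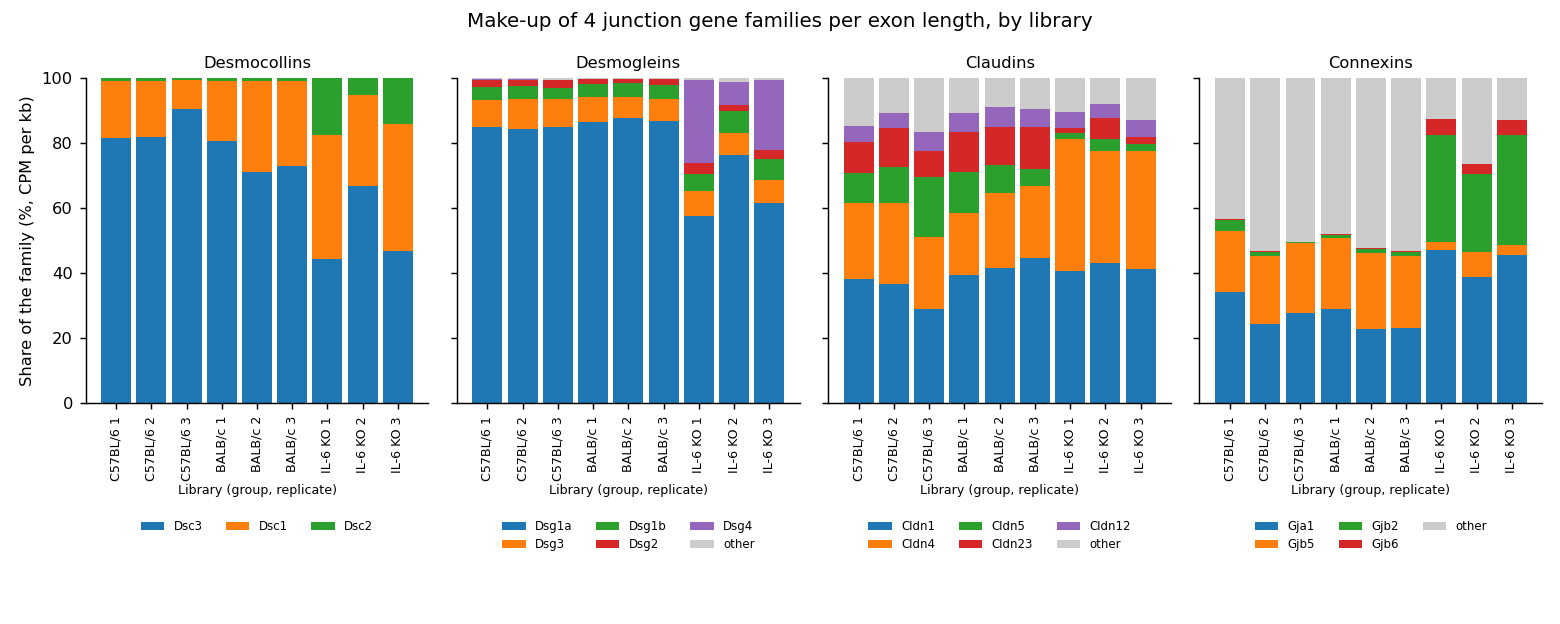
Share of each gene in the CPM per kb of its family, 1 stacked bar per library, for desmocollins, desmogleins, claudins and connexins. In the KO-labelled libraries, Dsc2, Dsg4 and Gjb2 take visible shares that are near 0 in the wild-type libraries, with the smallest shares in replicate 2.

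Several of these genes are neighbours on a chromosome, and the neighbours did not all move together. On chromosome 14, Gja3, Gjb2 and Gjb6 lie in that order with 40.6 and 18.6 kb between them, and all 3 were higher against both wild-type groups. On chromosome 4, Gja4 was lower than in C57BL/6 and Gjb5 was not called.

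Within the desmosomal cadherin cluster on chromosome 18, the order is Dsc3, Dsc2, Dsc1, Dsg1c, Dsg1a, Dsg1b, Dsg4, Dsg3 and Dsg2. Genes called against C57BL/6 (Dsc2, Dsc1, Dsg1c, Dsg1b, Dsg4 and Dsg2) alternate there with genes that were not (Dsc3, Dsg1a and Dsg3). Cldn4 was higher than in C57BL/6, and Cldn3, 39.3 kb from it on chromosome 5, was not called (0.15 ± 0.31, edgeR adjusted p = 0.720).

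**Figure D5:**
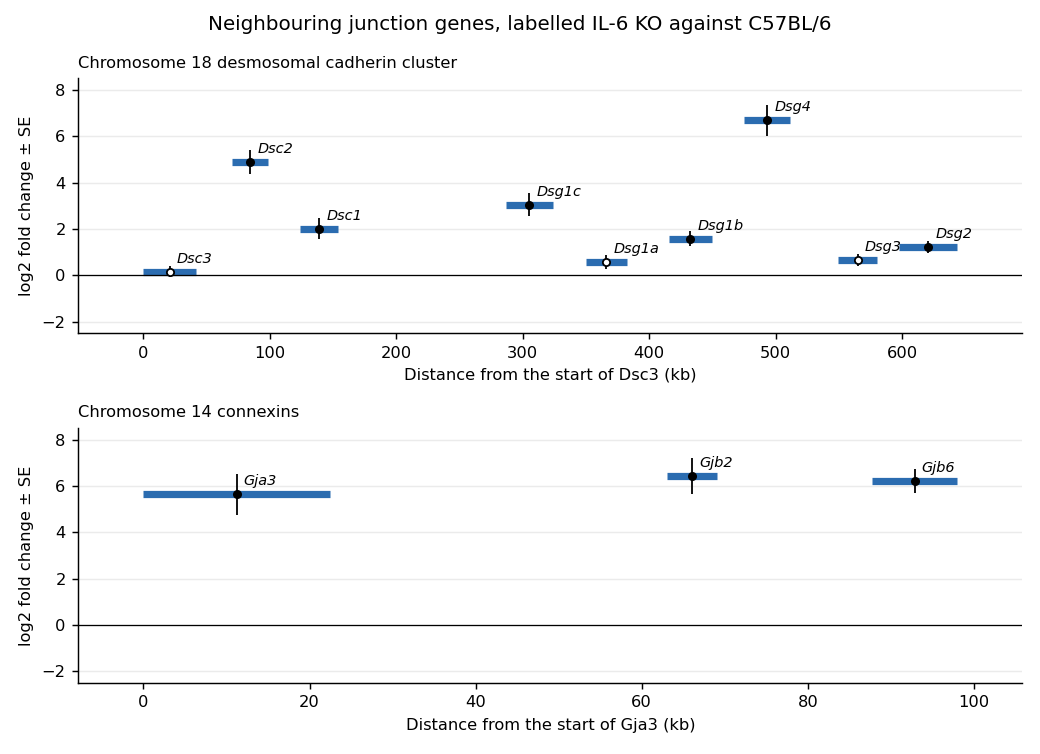
Log2 fold change ± SE, labelled IL-6 KO against C57BL/6, by distance in kb along the gene clusters of chromosomes 18 and 14, with each gene drawn to scale and filled points for an adjusted p under 0.05. The 3 chromosome 14 genes lie between 5.63 and 6.44, while the chromosome 18 cluster mixes called and uncalled genes.

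The 20 genes that were not tested had 46 reads or fewer over all 9 libraries. Cldn17 had 12 reads, all in the KO-labelled libraries, and Cldn2 had 0, 1 and 6 reads and Cldn7 2, 6 and 14 in C57BL/6, BALB/c and the KO-labelled libraries. Cldn11, a claudin of myelin, had 18, 2 and 7 reads, and Gjb1, a Schwann cell and liver connexin, 20, 15 and 11. Cldn6, Cldn9, Cldn18, Cldn20, Gja6 and Gjd3 had 7 reads or fewer in all. Among those with no read were Cldn13, Cldn16, Cldn22, Cldn24, Gja10, Gjd2, Gjd4 and Gje1. In a fit with no filter on low counts, edgeR called 1 of the 11 genes with reads, Cldn17, higher than in C57BL/6 (adjusted p = 0.0404) and than in BALB/c (adjusted p = 0.0388), on the 12 reads given above. It called none of the 11 between the strains, where only Cldn11, lower in BALB/c, was under 0.05 before adjustment (edgeR adjusted p = 0.177). Of the 21734 genes in that fit, 22.4% were called against C57BL/6, 24% against BALB/c and 2.16% between the strains.

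Genes that work with the junctions were counted from 4 lists. Of 16 tested adherens junction partners, 6 were higher and 3 lower in the KO-labelled libraries than in C57BL/6, with a median log2 difference of 0.25. Of all genes tested, 19.2% were higher and 16% lower. Ctnnb1, the beta-catenin gene, was at 453, 453 and 408 CPM in C57BL/6, 389, 356 and 378 in BALB/c, with 973, 620 and 899 in the KO-labelled libraries, higher than in C57BL/6 by 0.92 ± 0.19 (edgeR adjusted p = 0.00510). Ctnnd1, which stabilises cadherins, was higher by 0.48 ± 0.14 (adjusted p = 0.0235), the adhesion gene Nectin2 by 0.89 ± 0.17 (adjusted p = 0.00346), and the mesenchymal cadherin Cdh11 by 1.32 ± 0.33 (adjusted p = 0.0137).

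Of 25 tested tight junction partners, 8 were higher and 6 lower than in C57BL/6 (beside 19.2% and 16% of all genes), with a median of 0.03. Prkci, the atypical protein kinase C of cell polarity, was higher by 1.10 ± 0.21 (edgeR adjusted p = 0.00361). Lower were the endothelial adhesion genes Jam2 (−1.28 ± 0.20, adjusted p = 0.00178) and Esam (−1.49 ± 0.28, adjusted p = 0.00346), and Tjap1 (−0.80 ± 0.14, adjusted p = 0.00265). Esam is also a member of the blood endothelial marker list.

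Of 9 cornified junction and keratin genes, 2 were higher than in C57BL/6 and none lower, beside 19.2% and 16% of all genes. Envoplakin (Evpl) was higher by 0.73 ± 0.24 (edgeR adjusted p = 0.0376) and corneodesmosin (Cdsn) by 0.71 ± 0.22 (adjusted p = 0.0295). The protease gene Klk7 and the basal keratin gene Krt14 were not called. Panx1, a pannexin that forms channels in single membranes, was higher by 0.65 ± 0.20 (adjusted p = 0.0322), while Panx3 was not called. None of these 4 lists had a gene called between BALB/c and C57BL/6 by edgeR, where 3.41% of all genes tested were called.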

How the data were processed

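The deposited tables hold, per the file headers, whole-number counts per Ensembl gene (expression value, unique exon reads and total exon reads) with exon lengths. The submitters' processing notes name GRCm38, and the aligner and the counting rule were not given in the sources used here. In the file of C57BL/6 replicate 1 the table comes first, ahead of copies of the tables for replicates 2 and 3, and only that table was read. Total exon reads were analysed, since the expression value column equals them for 100% of genes in the KO-labelled libraries (label IL-6 KO) and for 88.7% to 89.5% in the others.

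Counts were filtered (filterByExpr, minimum count 10, minimum total 15), scaled by TMM and fitted with edgeR 4.0.16 (quasi-likelihood F test, 1 coefficient per group, 9 libraries, 6 residual degrees of freedom), with Benjamini-Hochberg adjustment over 14415 genes and a threshold of 0.05. The scripts were tested on simulated data. CPM per kb divides by exon length. For a group with no read, folds are bounds against 3 reads over the group. Counting error is all that these bounds and the counting intervals cover. Near-identical copies were found with blastn 2.17.0 (at least 95% identity over 200 bases and 40% of the shorter transcript, GENCODE vM21). Python 3.11.15, pandas 2.3.3 and matplotlib 3.10.9 were used.

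The junction genes, role classes, partner lists and marker lists were chosen with earlier results of these data known, so counts over them are descriptions. Named are the genes called in at least 1 comparison, the gene of each class with the highest level per exon length, uncalled genes with a mean of 5 CPM in a group, and the 4 genes of each partner list with the smallest joint p. Cldn3, Cldn15, Gja5, Pkp2 and Pkp4 are given by range, and a few genes that enter the counts are not reported here by name. Alternatives were RLE scaling, library size alone, no filter, the other count columns, only the 2 groups compared, a robust variance model, DESeq2 1.42.0, a replicate block, summed Dsg1 copies and leaving out each library. Leaving out C57BL/6 replicate 3 and IL-6 KO replicate 2 together was added after seeing the data.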

Additional observations from a re-analysis of the deposited data

How the results depend on the processing

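No called junction gene reversed under any alternative, and of 1096 recomputed calls 80 missed the threshold. Against C57BL/6 the number of junction genes called was 25, with 22 to 27 when 1 library was left out. Against BALB/c it was 29, with 19 to 31, the lowest without IL-6 KO replicate 3. The joint test called 27, with 19 to 29. With 1 library left out, 22.1% to 46.1% of all genes were called against C57BL/6, 22.5% to 47.8% against BALB/c and 24.4% to 52.4% jointly. Between the strains the number of junction genes called was 1 throughout, except 2 with DESeq2 and 2 without C57BL/6 replicate 3 and IL-6 KO replicate 2. In those 2 settings Dsg4 was added as lower in BALB/c. Without that pair of libraries, 26 were called against C57BL/6, 33 against BALB/c and 28 in the joint test, beside 40.5%, 49.1% and 49.6% of all genes. The cause was not tested.

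Replicate numbers did not pair the libraries: deviations from the group means of libraries with the same number correlated at −0.212 to 0.0617. With the number as a replicate block, 24 junction genes were called against C57BL/6, 27 against BALB/c, 1 between the strains and 28 in the joint test. Of all genes tested, 29.7%, 31.6%, 1.77% and 32.8% were called with the block, in the same order.

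Counts over all genes moved more. Between the strains 491 genes were called, 1033 with DESeq2, 255 with the block, and 167 to 977 when 1 library was left out. Without IL-6 KO replicate 3 the count fell from 5068 to 3238 against C57BL/6, from 5370 to 3310 against BALB/c and from 5865 to 3582 in the joint test. With library size alone, the median of all genes against C57BL/6 was 0.15 and 67.8% of called genes were higher (54.6% with TMM), and between the strains 58.8% were higher (47.9% with TMM). The depth of 3843953 to 6882193 reads left 20 of 65 junction genes untested.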
